A study of Mus musculus with 13 samples.

Results

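Adipocytes are controlled through G protein-coupled receptors of the cell membrane, and 9 of these receptor genes were asked for here: Oxtr, Ptger3, Adrb1, Adrb3, Adra2a, Adora1, Npy1r, Sucnr1 and Hcar1. A gene was followed where an array probe set was annotated to it alone, with the highest mean over all arrays deciding between probe sets of a gene. That rule found 5 of the 9, namely Oxtr, Ptger3, Npy1r, Sucnr1 and Hcar1, out of 18818 named genes in all. Each of the 5 had 1 probe set, so no choice between probe sets was made. In the mouse genome (RefSeq, GRCm38.p6) these genes span chr6:112473683-112491035 (Oxtr), chr3:157566821-157644758 (Ptger3), chr8:66697149-66706800 (Npy1r), chr3:60081869-60087566 (Sucnr1) and chr5:123876739-123880003 (Hcar1). Adrb1, Adrb3, Adra2a and Adora1 were not analysed here. The genes were picked with earlier results of these data known, so the count of receptors that moved is a description and not independent support.

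The study measured epididymal fat of male mice aged 6.5 weeks, with 1 Affymetrix gene array per sample and 13 arrays in 4 groups. The wild type groups held 3 arrays after the vehicle pyridine and 4 after α-galactosylceramide (αGalCer, 100 ng per g of body weight). The CD1d knockout groups (B6.129S6-Cd1d1/Cd1d2tm1spb/J) held 3 arrays each after vehicle and after αGalCer, and the background strain is given as C57Bl/6J in all groups. All mice ate a high-fat diet for 4 days, were injected into the peritoneum on days 0 and 2, and were killed on day 4. αGalCer is a glycolipid that activates natural killer T (NKT) cells when CD1d presents it, and mice without CD1d lack these cells. The targeted gene Cd1d1 lay at 10.69 ± 0.15 (SD, n = 3) in wild type and 3.73 ± 0.29 (SD, n = 3) in knockout fat after vehicle, on the log2 scale used throughout.

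Receptors of this family pass a signal to G proteins when a hormone, a neurotransmitter or a metabolite binds. In fat cells, receptors coupled to inhibitory G proteins lower cAMP, the messenger that switches on protein kinase A and the breakdown of stored fat. Ptger3 (the EP3 receptor of prostaglandin E2), Npy1r (the Y1 receptor of neuropeptide Y), Sucnr1 (the receptor of succinate) and Hcar1 (the receptor of lactate) are known for such an inhibitory action. Oxtr, the oxytocin receptor, couples mainly to Gq proteins, which act through phospholipase C.

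All 5 receptors fell in wild type fat after αGalCer, where 22.0% of all genes were called lower. A gene was called when its adjusted p in the limma model was under 0.05. Their changes ran from -3.42 to -1.20 with a median of -1.78, against a median of -0.02 over all genes. In each of the 5 genes all 4 arrays after αGalCer lay below all 3 vehicle arrays, which held for 25.0% of all genes. Of the 5 receptors 0 were called in knockout fat, where limma called 0 of 18818 genes. The change between αGalCer and vehicle was lower in wild type than in knockout for all 5 (14.3% of all genes were called lower in that difference). The RNA is from whole tissue, so fewer adipocytes and less receptor RNA per adipocyte cannot be told apart. The groups' arrays are called replicates and their origin from separate mice is not stated, so the p-values reflect variation among these arrays only, and some of it may be technical.

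**Figure D1:**
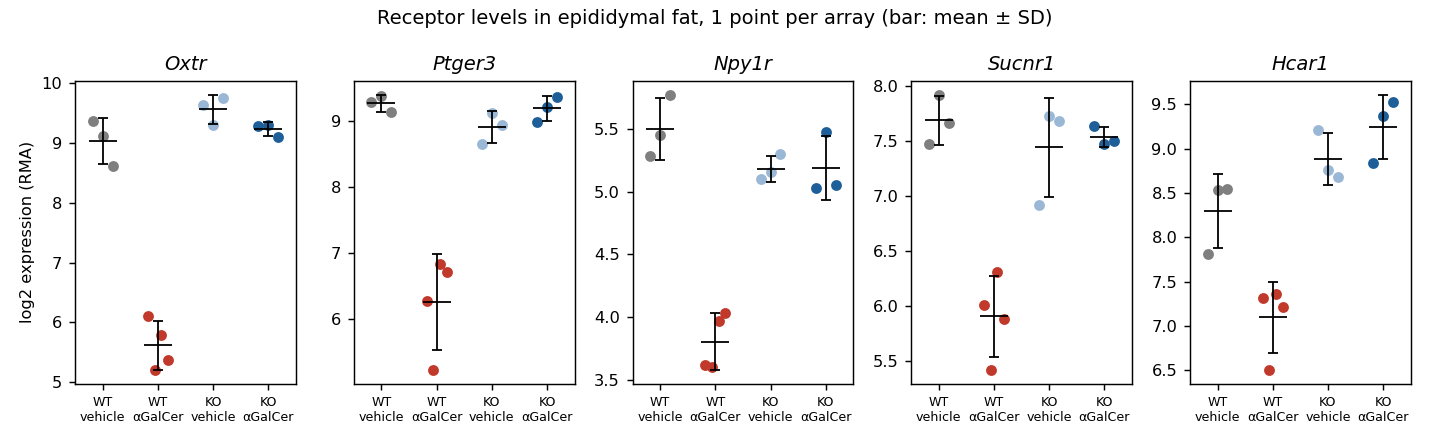
Log2 expression of each receptor (y axis, own scale for each gene) in the 4 groups (x axis), with 1 point per array and bars for the mean ± SD. The wild type arrays after αGalCer are the lowest 4 of 13 in all 5 genes (18.2% of all genes), for example 5.21 to 6.11 for Oxtr against 8.63 or more elsewhere.

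Oxtr, the receptor of the hormone oxytocin, had the largest fall of the 5. It read 9.37, 9.12 and 8.63 in the wild type vehicle arrays and 6.11, 5.21, 5.78 and 5.37 after αGalCer. In knockout fat it read 9.65, 9.30 and 9.76 after vehicle and 9.29, 9.30 and 9.10 after αGalCer. The 4 wild type arrays after αGalCer thus stood apart from the other 9, which lay between 8.63 and 9.76. The change in wild type was -3.42 ± 0.22 (SE), a 10.7-fold fall (adjusted p = 1.46e-07), and 8 of 18818 genes fell by this much or more, Oxtr included. In knockout the change was -0.34 ± 0.23 (95% confidence interval -0.84 to 0.17, adjusted p = 0.785). The difference between the genotypes was -3.08 ± 0.32 (adjusted p = 2.37e-05). By level the groups ordered as wild type αGalCer (5.62), wild type vehicle (9.04), knockout αGalCer (9.23) and knockout vehicle (9.57), and neighbours among the upper 3 had overlapping ranges.

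The 250 bases before 1 transcript start of each receptor were searched for short motifs because the 5 receptors moved together. For Oxtr the RefSeq table gives the transcript start at 112489825 on the minus strand, which lies inside the gene span given above, so the bases searched are within that span. The matches of Oxtr are shown as stretches of 30 bases from RefSeq (GRCm38.p6), minus strand, 5′ to 3′, with the motif in capitals.
Oxtr, nuclear receptor motif, chr6:112489906-112489935: gagaggacaggcAGGTCAgtgccagagtgc
Oxtr, E-box, chr6:112489851-112489880: cgggccccgcccCACGTGccacactttaaa
The motif AGGTCA, whose first base is at -98 from that transcript start, is bound by many nuclear receptors, and 14.0% of the 32851 promoters of this length hold it on either strand. The E-box CACGTG has its first base at -43 and is found in 6.02% of promoters. A match describes the letters only and is not a known site.

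Ptger3 encodes EP3, the receptor through which prostaglandin E2 restrains fat breakdown in adipocytes. Its wild type vehicle arrays read 9.29, 9.38 and 9.13, and those after αGalCer 6.27, 5.23, 6.83 and 6.71. Knockout arrays read 8.65, 9.12 and 8.94 after vehicle and 8.99, 9.21 and 9.36 after αGalCer. Replicate 2 of the wild type αGalCer group was the lowest, and the SD of that group (0.73) was the widest of the 4. The fall in wild type was 3.00 ± 0.30 on the log2 scale, or 8.01-fold (adjusted p = 3.38e-06), and without that array the change was -2.66. In knockout the change was 0.28 ± 0.32 (95% confidence interval -0.40 to 0.97, adjusted p = 0.839), and the difference between genotypes was -3.29 ± 0.43 (adjusted p = 0.000116). The order of the means was wild type αGalCer (6.26), knockout vehicle (8.90), knockout αGalCer (9.19) and wild type vehicle (9.26), with overlapping ranges between neighbours above the lowest group.

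Sucnr1 responds to succinate, an intermediate of the citrate cycle, and is expressed by fat cells and by macrophages. It read 7.47, 7.92 and 7.67 in wild type fat after vehicle and 6.01, 5.42, 6.31 and 5.89 after αGalCer. The knockout arrays read 6.92, 7.73 and 7.68 after vehicle and 7.64, 7.47 and 7.50 after αGalCer. Replicate 1 of knockout vehicle was the lowest of those 6, and still above every wild type array after αGalCer. The wild type change was -1.78 ± 0.22 (3.44-fold, adjusted p = 2.36e-05) and the knockout change 0.09 ± 0.24 (95% confidence interval -0.42 to 0.60, adjusted p = 0.936). The genotypes differed by -1.88 ± 0.32 (adjusted p = 0.000737). The means ran from 5.91 (wild type αGalCer) to 7.44 (knockout vehicle), 7.54 (knockout αGalCer) and 7.69 (wild type vehicle), and the upper 3 overlapped with their neighbours. Macrophage markers rose, as given further on, and the cell source of the Sucnr1 change was not tested.

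Sucnr1 is shown with its 250 bases before the gene start because it alone among the 5 carries TTC and GAA with 4 bases of any kind between them, the spacing that STAT6 is known to bind, and STAT6 is named in the title of the study. Hcar1 is shown beside it as a promoter with no match to any motif searched. Both are from RefSeq (GRCm38.p6), 5′ to 3′, Sucnr1 on the plus strand and Hcar1 on the minus strand, with a motif in capitals.
Sucnr1, chr3:60081619-60081868: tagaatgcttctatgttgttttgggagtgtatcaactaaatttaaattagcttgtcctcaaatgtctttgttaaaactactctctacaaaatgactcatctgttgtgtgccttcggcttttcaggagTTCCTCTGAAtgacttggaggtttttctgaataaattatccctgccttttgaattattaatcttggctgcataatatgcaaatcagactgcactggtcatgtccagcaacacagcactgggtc
Hcar1, chr5:123880004-123880253: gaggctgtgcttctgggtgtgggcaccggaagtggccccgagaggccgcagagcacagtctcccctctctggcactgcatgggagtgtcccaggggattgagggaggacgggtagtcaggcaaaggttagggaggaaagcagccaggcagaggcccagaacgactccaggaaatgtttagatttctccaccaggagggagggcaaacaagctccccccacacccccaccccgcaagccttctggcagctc
This match has its first base at -123 from the Sucnr1 start, and the pattern occurs in 5.85% of all 32851 promoters. Of these 2 sequences, Sucnr1 has 38.0% G and C bases and Hcar1 62.4%, against a median of 52.4% over all promoters. On both strands, 0 of the 5 receptors held TATAAA (12.4% of all promoters), CCAAT (33.8%), TTGCGCAA (0.164%, a C/EBP motif), TGACGTCA (1.55%, the cAMP response element), its part TGACG (17.8%) or TGTTCT (16.1%, a part of the glucocorticoid element). These shares describe a window of 250 bases, and TGACG overlaps TGACGTCA.

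Hcar1 encodes the receptor through which lactate restrains fat breakdown. The wild type arrays read 7.81, 8.54 and 8.54 after vehicle and 7.32, 6.50, 7.36 and 7.21 after αGalCer. In knockout fat they read 9.21, 8.75 and 8.68 after vehicle and 8.84, 9.37 and 9.53 after αGalCer. Hcar1 had the smallest fall of the 5, 1.20 ± 0.25 on the log2 scale (2.30-fold, adjusted p = 0.00161), and its groups lay close, with 7.36 the highest array after αGalCer and 7.81 the lowest after vehicle. The knockout change was 0.36 ± 0.27 (95% confidence interval -0.22 to 0.94, adjusted p = 0.787), and the difference between genotypes was -1.56 ± 0.37 (adjusted p = 0.00585). Without 4 arrays that carry transcripts of epididymis or skeletal muscle (described further on), that difference was -1.50 with adjusted p = 0.0771. The 4 means ran from 7.10 (wild type αGalCer) to 8.30 (wild type vehicle), 8.88 (knockout vehicle) and 9.25 (knockout αGalCer), and the arrays of the last pair overlapped.

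Npy1r encodes the Y1 receptor of neuropeptide Y, a transmitter that sympathetic nerves release beside noradrenaline. Its values were low, with a mean of 5.50 after vehicle in wild type at the 39.0th percentile of genes. The wild type vehicle arrays read 5.29, 5.45 and 5.77, and the αGalCer arrays 3.62, 3.60, 3.96 and 4.03. Knockout arrays read 5.10, 5.15 and 5.30 after vehicle and 5.03, 5.48 and 5.05 after αGalCer. The gap between the groups in wild type was wider than the range within either. The mean after αGalCer, 3.80, was at the 15.9th percentile of genes, and whether the probe set was above background there was not measured, so the fold may be a lower bound. The change was -1.70 ± 0.16 in wild type (3.25-fold, adjusted p = 2.02e-06) and 0.0040 ± 0.17 in knockout (95% confidence interval -0.36 to 0.37, adjusted p = 0.997), with a difference of -1.70 ± 0.23 (adjusted p = 0.000137). The means were 3.80 (wild type αGalCer), 5.18 (knockout vehicle), 5.19 (knockout αGalCer) and 5.50 (wild type vehicle), and the upper 3 overlapped with their neighbours.

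**Figure D2:**
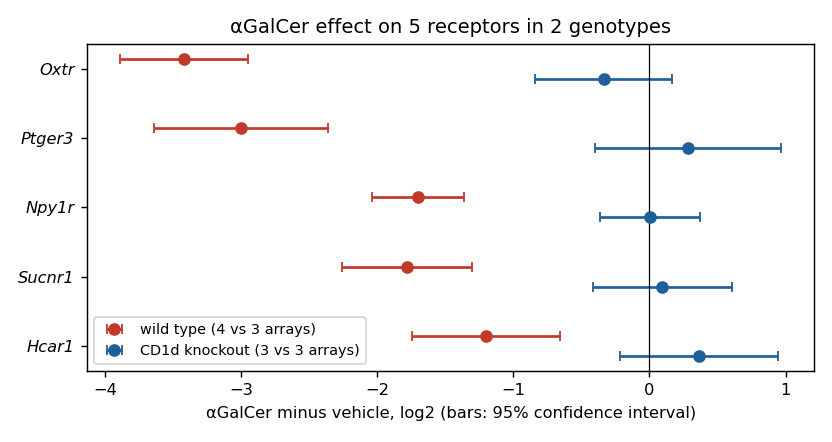
Change from vehicle to αGalCer (x axis, log2) for each receptor (y axis) in wild type and in CD1d knockout fat, with 95% confidence intervals from limma. The 5 wild type intervals lie below 0, from -3.89 to -2.95 for Oxtr to -1.74 to -0.66 for Hcar1, and each knockout interval holds 0.

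The genotypes were also compared within each injection. After vehicle 0 of the 5 receptors were called between knockout and wild type, beside 0.112% of all genes. The largest such values were 0.59 ± 0.27 for Hcar1 (adjusted p = 0.738) and 0.53 ± 0.23 for Oxtr (adjusted p = 0.721), both higher in knockout. Single arrays moved these values, to 0.34 for Hcar1 without wild type vehicle replicate 1 and to 0.33 for Oxtr without wild type vehicle replicate 3. The 3 knockout vehicle arrays of Hcar1 (8.68 to 9.21) all lay above the wild type ones (7.81 to 8.54), as in 7.38% of all genes. The 3 of Ptger3 (8.65 to 9.12) all lay below (9.13 to 9.38), as in 3.80% of genes, with a change of -0.36 ± 0.32 (adjusted p = 0.887). Npy1r and Sucnr1 differed by -0.32 ± 0.17 and -0.24 ± 0.24, with overlapping arrays and adjusted p = 0.797 and 0.899. Without wild type vehicle replicate 3 Npy1r was at -0.19, and without knockout vehicle replicate 1 Sucnr1 was at 0.02 and Ptger3 at -0.23.

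After αGalCer all 5 receptors were higher in knockout than in wild type fat, where 21.9% of all genes were called higher. The differences were 3.61 ± 0.22 for Oxtr, 2.92 ± 0.30 for Ptger3, 2.15 ± 0.25 for Hcar1, 1.63 ± 0.22 for Sucnr1 and 1.38 ± 0.16 for Npy1r, with adjusted p from 1.00e-07 to 4.92e-05. This comparison uses the same 4 wild type arrays as the comparison within wild type. In each receptor the 3 knockout arrays lay above the 4 wild type arrays, which held for 28.0% of all genes. The knockout values of Hcar1 after αGalCer (8.84 to 9.53) were also above its wild type vehicle values (7.81 to 8.54). Those groups differ in both genotype and injection, and neither a test nor the share of all genes was computed for them.

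The tissue's cell type markers moved in wild type fat after αGalCer, where 22.0% of all genes were called lower and 19.8% higher. The counts of markers here and further on are to be read beside these shares. The adipocyte list had 11 measured markers, and 11 of the 11 fell in wild type after αGalCer and 0 in knockout. The mean of these markers per array ran from 12.10 to 12.23 after vehicle and from 10.20 to 11.04 after αGalCer in wild type, and from 12.16 to 12.29 in knockout. Pck1 (-3.04 ± 0.29), an enzyme of glycerol supply for fat storage, and the glucose transporter Slc2a4 (-2.66 ± 0.23) fell most. Of 10 macrophage markers 10 rose, led by the Fc receptor Fcgr1 (3.60 ± 0.23) and the scavenger receptor Msr1 (3.35 ± 0.36), with array means of 8.27 to 9.13 after vehicle and 10.67 to 10.83 after αGalCer. In knockout 0 of these 10 were called, with changes of 0.15 to 0.67, and 7 were called higher in the difference between genotypes. The call of Lyz2 (0.40) in wild type was lost in some alternatives, such as without wild type vehicle replicate 1 (0.20). Of 10 T and NK cell markers 10 rose (array means 5.29 to 5.61 against 8.47 to 9.04), among them Gzmb (5.82 ± 0.14) and Prf1 (4.10 ± 0.24), proteins of cytotoxic granules. Of 10 endothelial markers 10 fell (9.75 to 9.94 against 8.12 to 8.60), such as the VEGF receptor Kdr (-2.57 ± 0.10) and Robo4 (-1.68 ± 0.13). Of 7 fibroblast markers 5 fell, with Lum (-2.04 ± 0.24) and Pi16 (-1.19 ± 0.17) lowest, and of 6 smooth muscle and pericyte markers 6 fell, with Cnn1 (-2.99 ± 0.47) and Rgs5 (-2.47 ± 0.18) lowest. Of 6 mesothelial markers 1 fell (Upk3b, -1.11 ± 0.20). The part of these markers in the fall of the receptors was not tested beyond the comparison with adipocyte markers.

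The receptors were also compared with the adipocyte markers. With the mean of the 11 markers subtracted in each array, Oxtr fell by 1.98 ± 0.22 (adjusted p = 1.25e-09) and Ptger3 by 1.56 ± 0.21 (adjusted p = 6.99e-08) in wild type, beyond the fall of 1.44 of the markers themselves. On this scale 1.21% of all genes were called lower. Npy1r (-0.26 ± 0.23, adjusted p = 0.290), Sucnr1 (-0.34 ± 0.22, adjusted p = 0.140) and Hcar1 (0.24 ± 0.22, adjusted p = 0.290) were not called, so their change was not told apart from that of the marker mean. For Npy1r this value may be limited by its low level after αGalCer. The genotypes differed on the same scale for Oxtr (-1.63 ± 0.32, adjusted p = 4.71e-05) and Ptger3 (-1.83 ± 0.31, adjusted p = 8.57e-06), where 0.728% of all genes were called lower. The markers themselves moved by -3.04 to -0.80, so the value depends on which markers make up the mean. After αGalCer, 3 receptors were higher in knockout than in wild type on this scale (1.07% of all genes were), Oxtr by 2.08 ± 0.22, Ptger3 by 1.39 ± 0.21 and Hcar1 by 0.61 ± 0.22 with adjusted p = 0.00982. For Hcar1 the knockout minus wild type value after vehicle was similar, 0.50 ± 0.24, and not called. The αGalCer change of Hcar1 did not differ by a called amount between genotypes (-0.11 ± 0.32, limma adjusted p = 0.742). On this scale the median change of all genes in wild type was 1.43, and 91.6% of them were called higher. Adjusted p-values depend on how many genes are called, so those of this scale are not to be compared with those of the unscaled values.

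**Figure D3:**
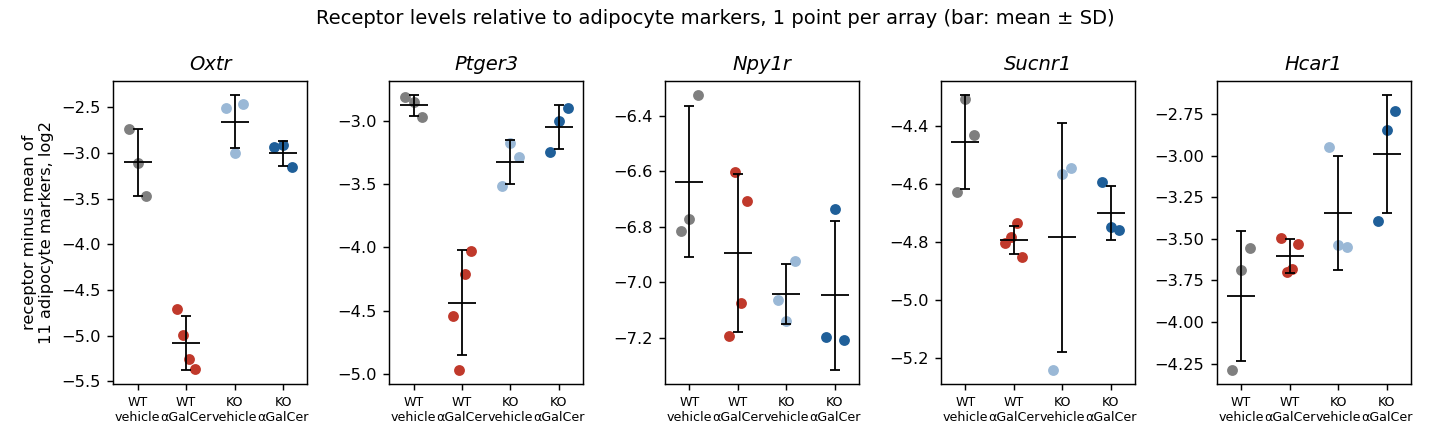
Receptor level minus the mean of 11 adipocyte markers in the same array (y axis, log2, own scale for each gene) in the 4 groups (x axis), with 1 point per array and bars for the mean ± SD. The wild type αGalCer arrays stay apart for Oxtr (-5.37 to -4.71 against -3.47 or higher) and Ptger3 (-4.97 to -4.03 against -3.51 or higher), and not for the other 3. The share of all genes that stay apart in this way on this scale was not counted.

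Within the wild type αGalCer group, replicate 2 was the lowest array for 5 of the 5 receptors, though for Npy1r only at 3.60 against 3.62 in replicate 1. The share of all genes with their lowest value there was not counted. Replicate 2 had the lowest adipocyte marker mean (10.20, against 10.74 to 11.04 in the other 3) and the highest macrophage marker mean (10.83, against 10.67 to 10.78). Its means were the lowest of the group for T and NK cell markers (8.47, against 8.69 to 9.04), endothelium (8.12, against 8.36 to 8.60), fibroblasts (8.95, against 9.24 to 9.43) and smooth muscle (7.24, against 7.42 to 7.90). Without it the wild type changes were -2.66 for Ptger3, -1.62 for Sucnr1 and -1.003 for Hcar1, and all 5 receptors were still called lower. Over the 13 fits that each leave out 1 array, 6753 to 8766 of 18818 genes were called in either direction.

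Signs of other tissue differed between arrays. The mean of 7 skeletal muscle markers was 8.52 and 6.75 in knockout vehicle replicates 1 and 2 and 8.71 in knockout αGalCer replicate 3, against 4.80 to 5.77 in the other 10 arrays. The mean of 6 epididymis and testis markers was 5.53 in wild type vehicle replicate 3 and 4.15 to 4.67 elsewhere. Of these lists, 0 of 7 and 1 of 6 markers were called in wild type (Lcn8, -0.35 ± 0.10). Without these 4 arrays, which were picked from earlier results, all 5 receptors were called lower in wild type and 4 of 5 in the difference between genotypes. Knockout vehicle then held 1 array, which is assumed to vary like the other groups. Epithelial markers fell in 4 of 8 cases, among them Mmp7 (-3.87 ± 0.79) and Epcam (-2.41 ± 0.72), whose values in knockout were -3.28 and -2.19. The call of Epcam was lost without wild type vehicle replicate 1 (-2.06) or 3 (-2.02), and that of Lcn8 without wild type vehicle replicate 1 (-0.25). Of 4 nerve markers 0 were called (Nefm, 0.10 ± 0.07).

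Receptors that share a ligand or a family with these 5 or with the 4 not analysed gave 12 measured genes of 21 listed, and they went different ways. In wild type 3 rose and 2 fell (19.8% and 22.0% of all genes did), and the median was -0.03. The other receptors of prostaglandin E2 rose where Ptger3 fell. Ptger2, which encodes EP2, rose by 0.90 ± 0.13 (adjusted p = 6.36e-05) from 5.11 to 6.01, and Ptger4, which encodes EP4, by 0.90 ± 0.15 (adjusted p = 0.000382) from 7.27 to 8.17. EP2 and EP4 raise cAMP and are found on immune cells. In knockout they had values of 0.21 ± 0.13 and 0.30 ± 0.17, and the difference between genotypes was called for Ptger2 (adjusted p = 0.0116) and not for Ptger4 (adjusted p = 0.0691). Both were called higher under all 24 alternative settings.

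Hcar2, the receptor of niacin and ketone bodies and next in family to Hcar1, rose by 1.16 ± 0.38 (adjusted p = 0.0252), a call that 17 of 24 alternatives kept. It was lost without wild type vehicle replicate 1 or 3 or wild type αGalCer replicate 1 or 4 (0.92 to 1.11). Avpr1a, a vasopressin receptor related to Oxtr, fell by 0.92 ± 0.18 in wild type (adjusted p = 0.00121) and had a value of -0.81 ± 0.20 in knockout (adjusted p = 0.720). That difference between genotypes was not called (adjusted p = 0.842). Npy6r fell by 0.74 ± 0.23 (adjusted p = 0.0181), from vehicle arrays of 2.97 to 4.29, and without wild type vehicle replicate 3 its change was -0.33 (adjusted p = 0.00545). With only the groups compared its call was lost (adjusted p = 0.0613). The mean of Npy6r after αGalCer was low, 2.75, and its difference between genotypes was not called (limma adjusted p = 0.129). Replicate 3 of wild type vehicle is the array with epididymis transcripts described above. The neuropeptide Y receptors Npy2r, Npy4r and Npy5r had changes between -0.06 and 0 at wild type means of 3.69 or lower. Avpr1b, Oxgr1, Adra1b and Adra2c, the last pair being receptors of noradrenaline, had changes of -0.32 to 0.10, with adjusted p of 0.0729 or more. With arrays centred on their medians or quantile normalized again, 3 relatives rose and 2 fell. Subtracting the adipocyte marker mean raises nearly all genes, and 91.6% of them were then called higher, so counts of relatives on that scale (11 of 12 higher) say nothing about the relatives.

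**Figure D4:**
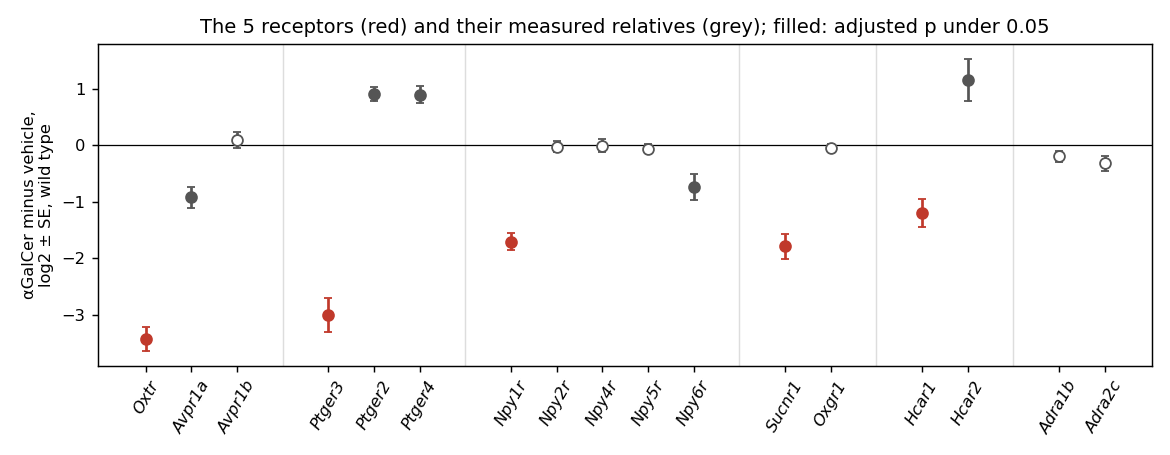
Change from vehicle to αGalCer in wild type fat (y axis, log2 ± SE) for the 5 receptors in red and 12 relatives in grey, grouped by ligand or family (x axis), with filled points at an adjusted p under 0.05. Ptger3 lies at -3.00 beside Ptger2 and Ptger4 at 0.90 each, and Hcar1 at -1.20 beside Hcar2 at 1.16.

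Among 25 other receptors described in fat, 13 fell and 3 rose, with a median of -0.47. Over all genes 22.0% fell and 19.8% rose in this comparison, and the counts of this list and of those that follow are to be read beside these shares. Aplnr, the apelin receptor, fell by 2.10 ± 0.15 and S1pr1, a sphingosine phosphate receptor of endothelium, by 1.75 ± 0.11. Gpr84, a receptor of medium-chain fatty acids on myeloid cells, rose by 2.14 ± 0.32 and S1pr3 by 1.12 ± 0.18.

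The proteins that carry the receptors' signal were listed by their step. Of 17 G protein subunits 6 fell and 2 rose (median -0.08). Gnao1 (-2.58 ± 0.17) and Gnai1 (-1.45 ± 0.15), both inhibitory α subunits, fell, while Gna13 (0.70 ± 0.07) and Gnai2, a widely expressed inhibitory subunit (0.23 ± 0.06), rose. Of 9 adenylyl cyclases, which make cAMP, 6 fell and 1 rose (median -0.63), with Adcy8 (-2.88 ± 0.75) and Adcy5 (-1.78 ± 0.25) lowest and Adcy7 (1.33 ± 0.15), the form of blood cells, higher. Adcy8 had a value of -2.69 ± 0.80 in knockout as well (adjusted p = 0.720). Of 8 genes of protein kinase A and its inhibitors 4 fell and 2 rose. Prkar2b, the main regulatory subunit of fat cells, fell by 1.75 ± 0.16 and the inhibitor Pkia by 0.85 ± 0.13, while the inhibitors Pkib (1.18 ± 0.12) and Pkig (0.35 ± 0.12) rose. The call of Pkig was lost without wild type vehicle replicate 1 or 3 or wild type αGalCer replicate 1, 2 or 3 (adjusted p from 0.0525 to 0.154). It was also lost with array weights (limma adjusted p = 0.0732), and the difference of Pkig between genotypes was not called (limma adjusted p = 0.0563).

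Of 15 phosphodiesterases, which break down cAMP, 8 fell and 1 rose (median -0.34). Pde3b, through which insulin restrains fat breakdown, fell by 1.60 ± 0.17 and Pde1a by 1.48 ± 0.18, and Pde1b rose by 1.57 ± 0.13. Of 6 phospholipase C β and IP3 receptor genes, which act after Gq, 2 fell and 1 rose. The Gq family subunits Gna11 (-1.07 ± 0.12) and Gnaq (-0.25 ± 0.08), counted above among the G proteins, fell as well. The call of Gnaq was lost with arrays centred on their median (limma adjusted p = 0.0831). It was also lost without wild type vehicle replicate 2 or 3 or wild type αGalCer replicate 4 (limma adjusted p from 0.0542 to 0.0942). Plcb4 (-1.84 ± 0.25) and the calcium channel Itpr2 (-0.80 ± 0.09) fell, and Plcb2, the form of blood cells, rose by 2.50 ± 0.22. Of 14 arrestins, receptor kinases and RGS proteins, which end receptor signals, 6 rose and 2 fell (median 0.28). Rgs1 (3.10 ± 0.29) and Rgs16 (2.57 ± 0.32) rose, and Rgs4 (-1.19 ± 0.16) and Grk4 (-0.71 ± 0.10) fell. All 8 measured genes of lipases and their partners at the lipid droplet fell (median -1.10), with the glycerol channel Aqp7 (-1.89 ± 0.14) and the monoglyceride lipase Mgll (-1.83 ± 0.15) lowest. The call of Plin5 (-0.43) was lost with the replicate number as a block (limma adjusted p = 0.0746). It was also lost without wild type vehicle replicate 1 or 3 or wild type αGalCer replicate 1 or 4. The difference of Plin5 between genotypes was not called (limma adjusted p = 0.163).

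In knockout fat 0 genes of any of these lists were called after αGalCer. At an unadjusted p under 0.05 limma counted 1281 of 18818 genes in that comparison, and with array weights it called 322 genes, 0 of the 5 receptors among them.

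**Figure D5:**
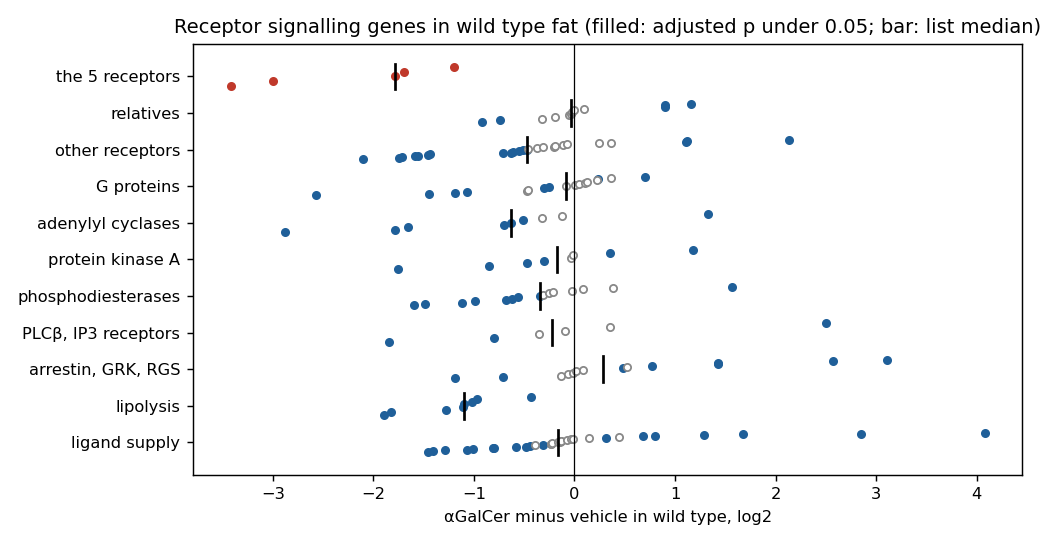
Change from vehicle to αGalCer in wild type fat (x axis, log2), with 1 point per gene, filled at an adjusted p under 0.05, and a bar at each list's median. The 5 receptors lie between -3.42 and -1.20, the 8 lipolysis genes have a median of -1.10, and ligand supply reaches 4.08 at Acod1.

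A list of 31 measured genes covers making, transport or breakdown of the ligands of the 9 receptors asked for, the 4 not analysed included. Of these 31 genes 7 were higher and 11 lower in wild type (median -0.16), beside 19.8% and 22.0% of all genes. Acod1, which makes itaconate, an inhibitor of the enzyme that consumes succinate, rose by 4.08 ± 0.46 from 5.56 to 9.64 (adjusted p = 1.07e-05). Slc16a3, an exporter of lactate, rose by 2.85 ± 0.33 from 6.06 to 8.91 (adjusted p = 1.31e-05). In knockout these had changes of 0.11 ± 0.49 and 0.03 ± 0.35. Nt5e, the ectoenzyme CD73 that makes adenosine, fell by 1.45 ± 0.32, and its value in knockout was -0.76 ± 0.34, with no call of the difference (adjusted p = 0.332). Adenosine is the ligand of Adora1, which was not analysed here. Hpgd, which breaks down prostaglandin E2, fell by 1.40 ± 0.18. The gene of oxytocin itself (Oxt) was at 5.53 and 5.31 in wild type after vehicle and αGalCer (adjusted p = 0.140), and Npy at 6.33 and 5.94 with an SE of the change of 0.79 (adjusted p = 0.742).

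The genes whose profile over the 13 arrays was most like each receptor were also named, as a description. Pearson's r was 0.995 between Oxtr and Il17d, 0.994 for Cnnm2 and 0.993 for Adcy6. Ptger3 was most like Hspa12a (0.995), Ptprd (0.992) and Klf15 (0.992), a transcription factor of fat cells. Npy1r was most like Lrba (0.981), Rangrf (0.979) and Sorbs2 (0.978). Sucnr1 was most like Fabp4 (0.988), the fatty acid binding protein of adipocytes, Npr3 (0.988) and Mpdz (0.985), and Hcar1 was most like Col6a3 (0.979), Vstm4 (0.975) and Vnn3 (0.975). The 4 wild type arrays after αGalCer stand apart from the other 9, so these values mainly measure that separation: 1822 genes reached r of 0.9 with Oxtr and 607 with Hcar1. Over the other 9 arrays alone the same pairs gave r of 0.66 to 0.91.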

How the data were processed

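The deposited values are log2 expression from Affymetrix gene arrays, made by the authors with RMA per the submitters' processing notes, with version and probe set definition not given in the sources used here. Of 35556 probe sets, 21218 had 1 gene symbol, 1881 several and 12457 none. The probe set with the highest mean stood for each of 18818 genes. Array medians were 5.68 to 5.83, and the number of arrays limits the precision. All 13 arrays were fitted together by group with limma 3.58.1 in R 4.3.3 (lmFit, eBayes with trend), with Benjamini-Hochberg adjustment over all genes and a threshold of 0.05, and adjusted p-values in the text come from this model. The fit was tested on simulated data. The genes, lists and tests were chosen with earlier results of these data known. Genes named are the receptors and, per list, the called genes that rose and fell most in wild type (with none called, the smallest p), plus, by Pearson's r over 13 arrays, the 3 most like each receptor; other named genes were chosen after their values were seen. Scaling, filters, array weights, a replicate block and leaving out arrays were tried as alternatives. Promoter sequences are from RefSeq.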

Additional observations from a re-analysis of the deposited data

Results flagged for a closer look

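The change from vehicle to αGalCer differed between wild type and knockout fat for all 5 measured receptors, by the interaction term of the limma model. In that difference 14.3% of all genes were called lower. With the adipocyte marker mean subtracted, it was called for Oxtr and Ptger3 only. The wild type minus knockout difference on the log2 scale was -3.08 for Oxtr, -3.29 for Ptger3, -1.70 for Npy1r, -1.88 for Sucnr1 and -1.56 for Hcar1.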

How the results depend on the processing

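The receptors' wild type fall was called for all 5 in 22 of 24 alternatives and for the 4 that a filter on low means left, and 0 receptors were called in knockout or between genotypes after vehicle in any of the 24. Over the 24 alternatives 6753 to 17473 of 18818 genes were called in wild type, in either direction. The remaining alternative was centring arrays on the adipocyte markers, which left 2 receptors lower in wild type, 2 in the difference between genotypes and 3 higher in knockout after αGalCer. There Hcar1 was at 0.24 in wild type and Npy1r at -0.15 in knockout minus wild type after αGalCer. By construction this scaling moves most genes, and it called 17473 genes in wild type (7881 as reported), 15 in knockout (0), 16969 in the difference (5309) and 17830 between genotypes after αGalCer (7739). Array weights called 322 genes in knockout and 169 between genotypes after vehicle (21 as reported), and fitting only the groups compared called 4 of the latter. Without the 4 arrays with epididymis or muscle transcripts the counts were 2 in knockout, 3164 in the difference and 3 between genotypes after vehicle, with fewer samples, and Hcar1 lost its call in the difference (-1.50). Leaving out each array in turn gave 0 to 2 genes in knockout (2 without knockout vehicle replicate 3) and 11 to 35 between genotypes after vehicle (11 without wild type vehicle replicate 3, 35 without wild type αGalCer replicate 2). The cause of these other changes was not tested. With the replicate number as a block 7766, 0, 5461, 17 and 7637 genes were called in the 5 comparisons, with receptor calls of 5, 0, 5, 0 and 5. Deviations of same-numbered arrays from their group means correlated at -0.20 to 0.48 over 18 pairs, 5 of them over 0.1. The highest value, 0.48, was reached between wild type vehicle and knockout vehicle for replicate 1 and for replicate 2. Whether same-numbered samples share a processing step was not tested. Npy1r had no value under that filter.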

Other observations

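The adenylyl cyclase gene Adcy8 changed by -2.88 ± 0.75 (SE) in wild type and had a value of -2.69 ± 0.80 in knockout. The epithelial marker Epcam had values of -2.41 ± 0.72 and -2.19 ± 0.77. The difference between genotypes was not called for either (limma adjusted p = 0.935 and 0.921). The mean of 8 epithelial markers was 6.33 to 7.47 in wild type and 5.86 to 8.14 in knockout arrays after vehicle, and 5.63 to 6.02 and 5.52 to 5.65 after αGalCer. The part of epithelium in these values was not tested.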
